A study of Mus musculus with 34 samples.

Results

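The histone demethylase LSD1 and the subunits of its CoREST complex are described here in small cell lung cancer cells of the mouse (SCLC, a lung cancer of neuroendocrine type) treated with the LSD1 inhibitor bomedemstat (BOM). The members were 9 genes chosen by name, of 30750 genes listed in at least 1 of the 3 count tables: the demethylase Kdm1a (LSD1), the scaffolds Rcor1, Rcor2 and Rcor3, the deacetylases Hdac1 and Hdac2, and the subunits Hmg20b, Phf21a and Zmym2. All 9 passed the filter on low counts in all 3 tables, and none fell below 180 counts in any library. The rule uses gene names and no measured value.

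LSD1 removes methyl groups from H3K4, the histone H3 lysine marked at active promoters and enhancers. It works inside CoREST, in which an RCOR protein holds the demethylase and a class I histone deacetylase together on chromatin, so that methyl and acetyl marks can be removed side by side. The complex is brought to DNA by transcription factors such as INSM1, GFI1 and REST, which differ in the cells that express them. Inhibitors of LSD1 are known to alter the neuroendocrine program of SCLC cells.

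RNA was sequenced from 34 samples of 3 experiments, and BOM dose and mouse strain, sex and age were not given in the sources used here. A 96 h culture compared BOM (n = 3) with its solvent DMSO (n = 3) in 3 mouse SCLC lines, G8545, RP-116 and RP-48, with 1 library per line and treatment. A 10 d culture of RP-48OVA-LLO190 cells compared BOM with interferon gamma (IFNg) added for the last 48 h (n = 2), BOM (n = 2), DMSO with IFNg added for the last 48 h (n = 3) and DMSO (n = 3). The tumor experiment grew RP-48OVA-LLO190 cells in the flank of mice with an intact immune system, which received BOM plus anti-PD1 (n = 4), BOM (n = 4), anti-PD1 (n = 5) or vehicle (n = 5), with a labelled time of 16 d, where anti-PD1 blocks a checkpoint receptor of T cells. All 10 d cultures and tumors are of 1 line, and the tumors hold mouse host cells with the mouse SCLC cells. Where nothing says that libraries came from separate cultures, as at 10 d, the p-values measure the spread between these libraries, which may be technical.

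The members lie on 7 chromosomes (build GRCm38, GENCODE M21, protein-coding genes with their exons counted together). Kdm1a spans chr4:136550540-136602723 on the minus strand, and Hdac1 lies on the same chromosome at chr4:129516104-129542713, also on the minus strand. Rcor1 spans chr12:111039351-111115901 on the plus strand, Rcor2 chr19:7267325-7275225 on the plus strand and Rcor3 chr1:192098546-192138062 on the minus strand. Hdac2 spans chr10:36974544-37001889 on the plus strand and Hmg20b chr10:81346048-81350480 on the minus strand. Phf21a spans chr2:92093117-92364666 and Zmym2 chr14:56886653-56962701, both on the plus strand. The NEBNext Ultra kit given in the labels keeps no strand, so the 8.34% of Rcor3 exon bases that overlap genes on the opposite strand (Gm26879, Gm37055 and Gm10516) hold reads of uncertain origin. The exon bases of Rcor1 overlap Gm48632 by 0.932%, and those of the other 7 members overlap no gene.

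The promoters of the 3 members that fell with BOM in the 10 d culture are shown, from RefSeq (GRCm38.p6, coding strand, 5′ to 3′). Capitals mark motif matches, and for Rcor2 the run ends before the first annotated exon, with a separate stretch around its E-box.
Kdm1a, chr4:136602724-136602973: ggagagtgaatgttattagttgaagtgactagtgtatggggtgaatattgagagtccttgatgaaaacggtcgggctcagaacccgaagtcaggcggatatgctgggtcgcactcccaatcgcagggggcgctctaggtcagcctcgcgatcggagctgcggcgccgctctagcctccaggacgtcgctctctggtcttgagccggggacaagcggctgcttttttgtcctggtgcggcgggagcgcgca
Rcor2, chr19:7267144-7267324: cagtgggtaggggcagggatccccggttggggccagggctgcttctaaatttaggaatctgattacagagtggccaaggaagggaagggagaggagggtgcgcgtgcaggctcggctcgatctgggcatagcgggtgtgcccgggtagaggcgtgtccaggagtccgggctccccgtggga
Rcor2 E-box, chr19:7267352-7267381: tgtgagctgcagCACGTGccccaggcggcg
Zmym2, chr14:56886353-56886602: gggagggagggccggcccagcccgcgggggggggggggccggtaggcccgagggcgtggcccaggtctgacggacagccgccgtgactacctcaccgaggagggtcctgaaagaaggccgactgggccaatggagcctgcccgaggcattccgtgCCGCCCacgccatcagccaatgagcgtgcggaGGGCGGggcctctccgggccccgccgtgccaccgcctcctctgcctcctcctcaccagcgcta
Promoter entries matched 8 members, and Hdac1 is named only. In the 250 bases before the start, on both strands, the E-box CACGTG (bound by MYC and its partners) was found in 1 of the 8, Rcor2, 30 bases before the RefSeq start, and in 6.05% of 27025 genes. The GC box GGGCGG was found in 7 of the 8, all but Kdm1a, and in 32.9% of genes. In Rcor2 the GC box lies 61 bases before the RefSeq start and does not overlap the E-box. Both sites fall among the 69 of these 250 bases that GENCODE annotates as exon of Rcor2. The E-box CAGGTG (bound by SNAI and ZEB proteins, 17.1% of genes) was found in none of the 8.

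Levels of different genes were compared as CPM, counts scaled to the same library total, per kb of exon. Hdac2 and Kdm1a were the most abundant members and Rcor3 the least in every group, except that Kdm1a led in both groups at 96 h. In vehicle tumors Hdac2 averaged 113 ± 10.3 and Kdm1a 98.1 ± 7.54 CPM per kb, with overlapping ranges (SD, n = 5). Rcor2 (30.8 ± 8.43) and Hmg20b (26.4 ± 2.20) followed and also overlapped. Rcor1 (20.8 ± 0.394), Hdac1 (16.7 ± 1.64), Zmym2 (10.4 ± 0.405), Phf21a (9.29 ± 0.705) and Rcor3 (2.53 ± 0.135) came after them, each apart from the next.

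**Figure D1:**
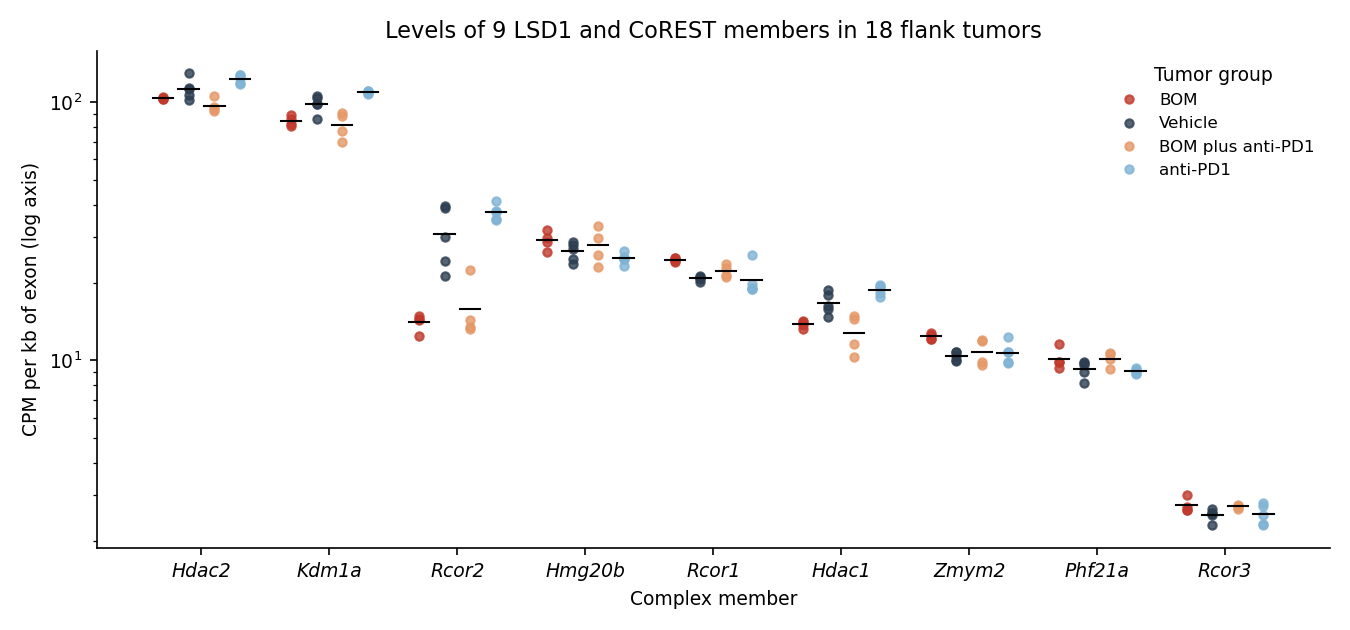
Level of each member in the 18 flank tumors, as CPM per kb of exon on a log axis, with points for tumors and a line at each group mean. Rcor2 sits at 12.4 to 14.8 in the 4 BOM tumors against 21.1 to 39.7 in the 5 vehicle tumors, while Rcor3 is the lowest member in every group.

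In DMSO cultures at 10 d the order was Hdac2 (50.2 ± 1.90 CPM per kb), Kdm1a (39.9 ± 0.946) and Rcor2 (35.5 ± 1.28, SD, n = 3), none overlapping the next. Zmym2 (20.6 ± 1.23) and Rcor1 (20.4 ± 1.87) overlapped, and Hmg20b (18 ± 1.36) overlapped Rcor1. Phf21a (10.9 ± 0.249), Hdac1 (9.71 ± 1.04) and Rcor3 (5.06 ± 0.507) were the lowest. With BOM the order of the scaffolds changed: Rcor1 (22.1 ± 2.44) lay above Rcor2 (14.0 ± 2.05, SD, n = 2). The labels name total RNA for the 10 d libraries and polyA RNA for the others, so levels were not compared between experiments.

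Library facts bear on what follows. Libraries held 8712025 to 9968681 counts at 96 h, 5896627 to 9044398 at 10 d and 5638353 to 82205546 in the tumors, where vehicle tumor 1 was the deepest and the next held 13150056 (vehicle tumor 2). At 10 d the transcripts Gm26917 and Gm42418 together took 9.50 to 11.2% of the counts with BOM, with or without IFNg, against 13.4 to 17.9% with DMSO. The printed CPM use totals that hold these transcripts, so at 10 d those of other genes run higher with BOM than with DMSO. Fold changes use a further scaling between libraries (TMM). All 10 neuroendocrine marker genes were detected in every group and summed to 3503 to 4450 CPM over the 18 tumors, 3302 to 4302 CPM at 10 d and 2916 to 4669 CPM at 96 h. Host cell markers varied within tumor groups: the 8 macrophage genes summed to 493 to 1122 CPM with BOM plus anti-PD1, 412 to 1066 with BOM, 206 to 1019 with anti-PD1 and 467 to 1293 with vehicle, with none at 0. The 7 fibroblast genes summed to 339.8 to 601 CPM with BOM plus anti-PD1, 455 to 1768 with BOM, 247 to 2012 with anti-PD1 and 554 to 1249 with vehicle, again with none at 0. The 6 T cell genes summed to 13.3 to 31.3 CPM with BOM plus anti-PD1 and 2.01 to 15.7 CPM with anti-PD1. With BOM they summed to 6.88 to 26.3 CPM and with vehicle to 3.99 to 24.2 CPM. Skeletal muscle genes reached 1052 CPM in BOM tumor 2, beside 3.54 to 4.32 CPM in the other BOM tumors. Adipocyte genes reached 478 CPM in vehicle tumor 4 and 270 CPM in BOM tumor 1. The part of these host markers in the results was not tested. In a bulk tumor, fewer cells of a type and less RNA per cell cannot be told apart.

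BOM lowered the scaffold Rcor2 more than any other member, in culture at 10 d and in tumors, and the other scaffolds Rcor1 and Rcor3 were not called in any of these comparisons. Kdm1a, the drug target, fell by a smaller amount in 3 of the 4 comparisons of BOM at 10 d and in tumors. Calls were made at an adjusted p under 0.05 (edgeR quasi-likelihood test, Benjamini-Hochberg adjustment over all genes tested). In the 10 d culture 3 of 9 members fell with BOM and none rose, where 20.3% of all 15230 genes were called (8.25% lower and 12.1% higher). With IFNg present 3 of 9 fell and none rose, where 23.1% of genes were called (10.1% lower and 13% higher). In tumors 1 member fell and 1 rose with BOM against vehicle, where 14% of 14332 genes were called (8.07% lower and 5.92% higher). With BOM plus anti-PD1 against anti-PD1 alone 4 fell and none rose, where 32.1% of genes were called (16.5% lower and 15.7% higher). The members' median log2 fold change was -0.16, -0.14, 0.11 and -0.01 in these 4 comparisons, beside -0.01 over all genes in each.

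**Figure D2:**
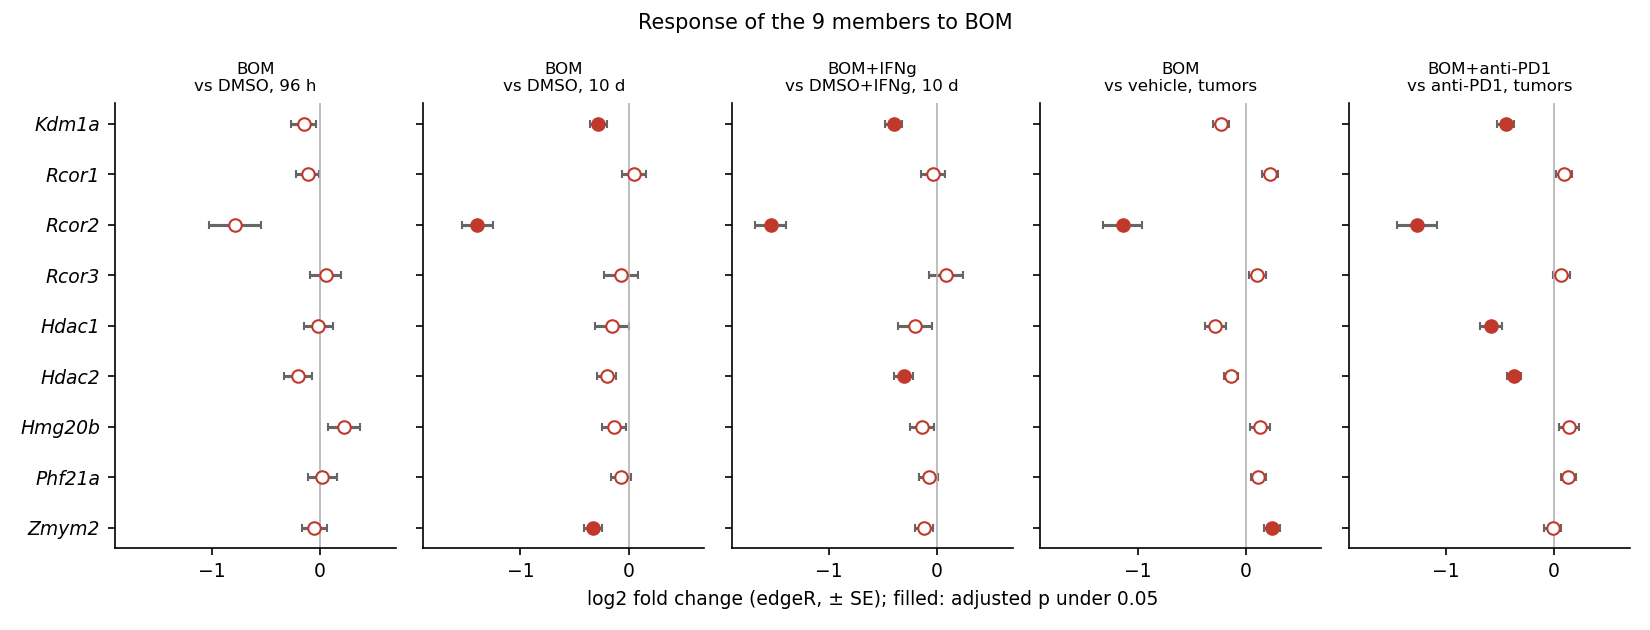
Log2 fold change (edgeR, ± SE) of the 9 members in the 5 comparisons of BOM with its control, with filled points for an adjusted p under 0.05. Rcor2 is the lowest point in each panel, from -0.79 at 96 h to -1.54 at 10 d with IFNg, and only its 96 h point is open.

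After 96 h of BOM no member was called, and neither was any other gene (0% of 13333) by edgeR. At an unadjusted p under 0.05 there were 812 genes and 1 member, Rcor2 (log2 fold change -0.79 ± 0.24, SE, adjusted p = 0.581), and DESeq2 and limma voom called 59 and 14 genes and 0 members. The members' median was -0.05, beside -0.01 over all genes. The lines differed in Rcor2. It stood at 45.3 CPM with BOM and 132 CPM with DMSO in G8545, at 35.8 CPM with BOM and 57.3 CPM with DMSO in RP-48, and at 169.7 CPM with BOM and 185 CPM with DMSO in RP-116. The log2 differences of -1.54, -0.69 and -0.16 all point down, with 1 library per line and treatment and so no test within a line.

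The scaffold Rcor2 (CoREST2), a paralog of Rcor1 known from pluripotent and neural progenitor cells in mouse, had the lowest fold change of the members in each comparison of BOM with its control. At 10 d it measured 39.8 and 48.9 CPM with BOM, against 111, 116 and 109 CPM with DMSO. Every BOM library lay below every DMSO library, by more than the spread within either group (log2 fold change -1.40 ± 0.14, SE, adjusted p = 1.44e-06, edgeR). With IFNg in the last 48 h it measured 38.7 and 32.5 CPM with BOM, against 114, 81.3 and 99.5 CPM with DMSO, again without overlap (-1.54 ± 0.15, adjusted p = 5.02e-07, edgeR).

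In tumors Rcor2 measured 45.3, 46.8, 45.8 and 39.2 CPM with BOM, against 66.7, 76.4, 123, 95.0 and 125 CPM with vehicle. The groups did not overlap, and the lowest vehicle values were those of tumors 1 and 2, the deepest libraries (log2 fold change -1.14 ± 0.18, SE, adjusted p = 0.00119, edgeR). Without those tumors the fold change was -1.39 (adjusted p = 4.27e-06). Leaving out the lowest vehicle values itself widens the difference. With BOM plus anti-PD1 it measured 41.8, 42.3, 70.6 and 45.2 CPM, against 111, 110.1, 131, 119.9 and 119 CPM with anti-PD1 alone. Tumor 3 of BOM plus anti-PD1 stood above its group and still below all anti-PD1 tumors (-1.27 ± 0.18, adjusted p = 0.00012). Against vehicle, BOM plus anti-PD1 lowered Rcor2 by a log2 fold change of -0.95 ± 0.18 (adjusted p = 0.00565), with tumor 3 inside the vehicle range. A fit of only these groups ended that call (adjusted p = 0.0731).

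**Figure D3:**
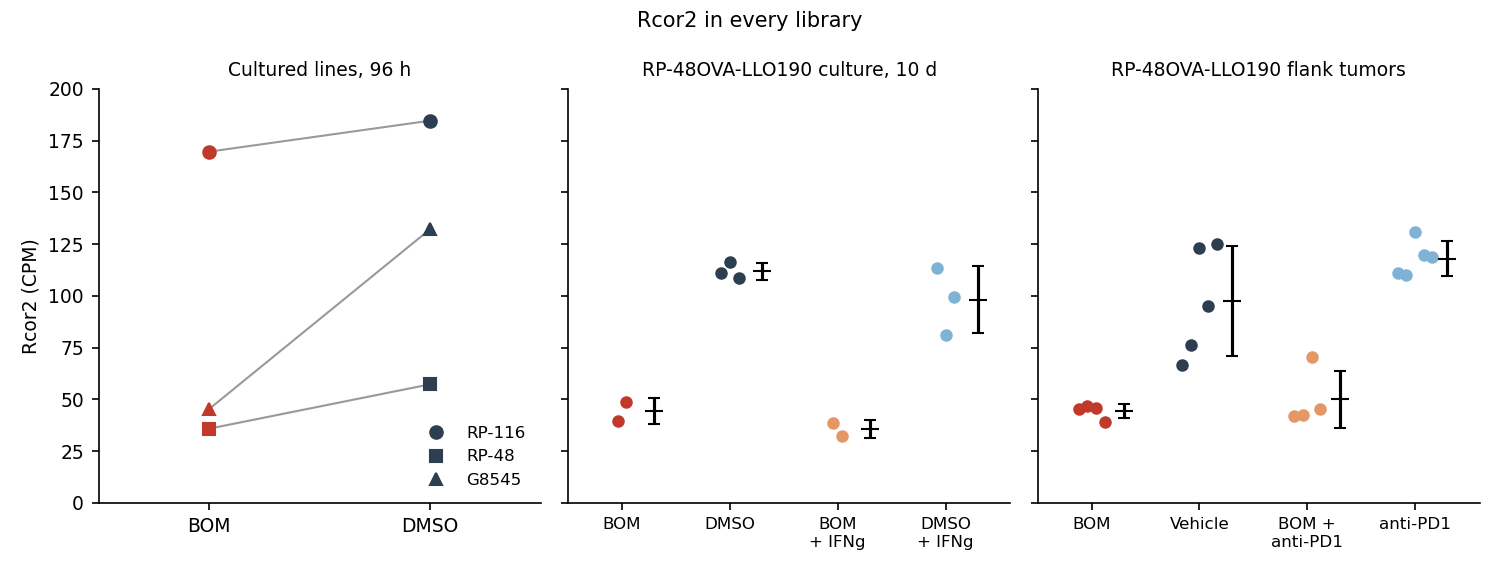
Rcor2 level (CPM) in each of the 34 libraries, with lines joining BOM and DMSO of the same cell line at 96 h and mean ± SD bars at 10 d and in tumors. The BOM libraries at 10 d lie at 39.8 and 48.9 against 109 to 116 with DMSO, and in RP-116 the values are 169.7 with BOM and 185 with DMSO.

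The other scaffolds were not called by edgeR in these comparisons. Rcor1 (CoREST1), the scaffold that anchors LSD1 to nucleosomes, averaged 126 ± 13.9 CPM with BOM (SD, n = 2) and 116 ± 10.6 CPM with DMSO (n = 3) at 10 d, with a log2 fold change of 0.05 (adjusted p = 0.809, edgeR). In tumors it measured 141, 137, 136 and 142 CPM with BOM, against 120.4, 119, 119, 117 and 115 CPM with vehicle. These groups did not overlap, yet the difference did not pass the adjusted threshold (0.23 ± 0.08, adjusted p = 0.0522); DESeq2 and limma voom put it at adjusted p = 0.0221 and 0.0167. With BOM plus anti-PD1 against anti-PD1 alone the log2 fold change was 0.09 (adjusted p = 0.377), and without anti-PD1 tumor 2, which stood apart at 145 CPM, it was 0.20 (adjusted p = 0.00545). That tumor was the highest of its group, so its removal itself raises the fold change. Rcor3 (CoREST3), the third paralog, had log2 fold changes between -0.07 and 0.11 in the 4 comparisons, none called.

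The makeup of the scaffold transcripts differed between BOM and its controls. Per kb, Rcor2 made up 34 ± 2% of Rcor1, Rcor2 and Rcor3 with BOM at 10 d (SD, n = 2), against 58.3 ± 2.03% with DMSO (n = 3), a difference of -24.2 points. With IFNg it made up 29.4 ± 1.60% with BOM and 54.3 ± 2.71% with DMSO, a difference of -24.9 points. Exact two-sided permutation tests gave p = 0.1 for each, the smallest these group sizes allow. BOM tumors held 34 ± 2.09% (n = 4) and vehicle tumors 56.1 ± 7.25% (n = 5), a difference of -22.2 points (exact permutation p = 0.00794, adjusted over 8 tests of shares 0.0318). BOM plus anti-PD1 tumors held 38.3 ± 5.28% (n = 4) and anti-PD1 tumors 62 ± 4.01% (n = 5), a difference of -23.7 points with the same p. No group overlapped its control. At 96 h the share was 34% with BOM and 57.9% with DMSO in G8545, 26.3% with BOM and 35.2% with DMSO in RP-48, and 67.7% with BOM and 68.9% with DMSO in RP-116. In raw counts, without exon length, Rcor2 made up 18.5% with BOM and 37.8% with DMSO at 10 d. BOM tumors held 20% and vehicle tumors 38.4% of raw counts (exact permutation p = 0.0159, not adjusted). The shares are built from the Rcor2 values given above, so they are not independent of its fall.

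**Figure D4:**
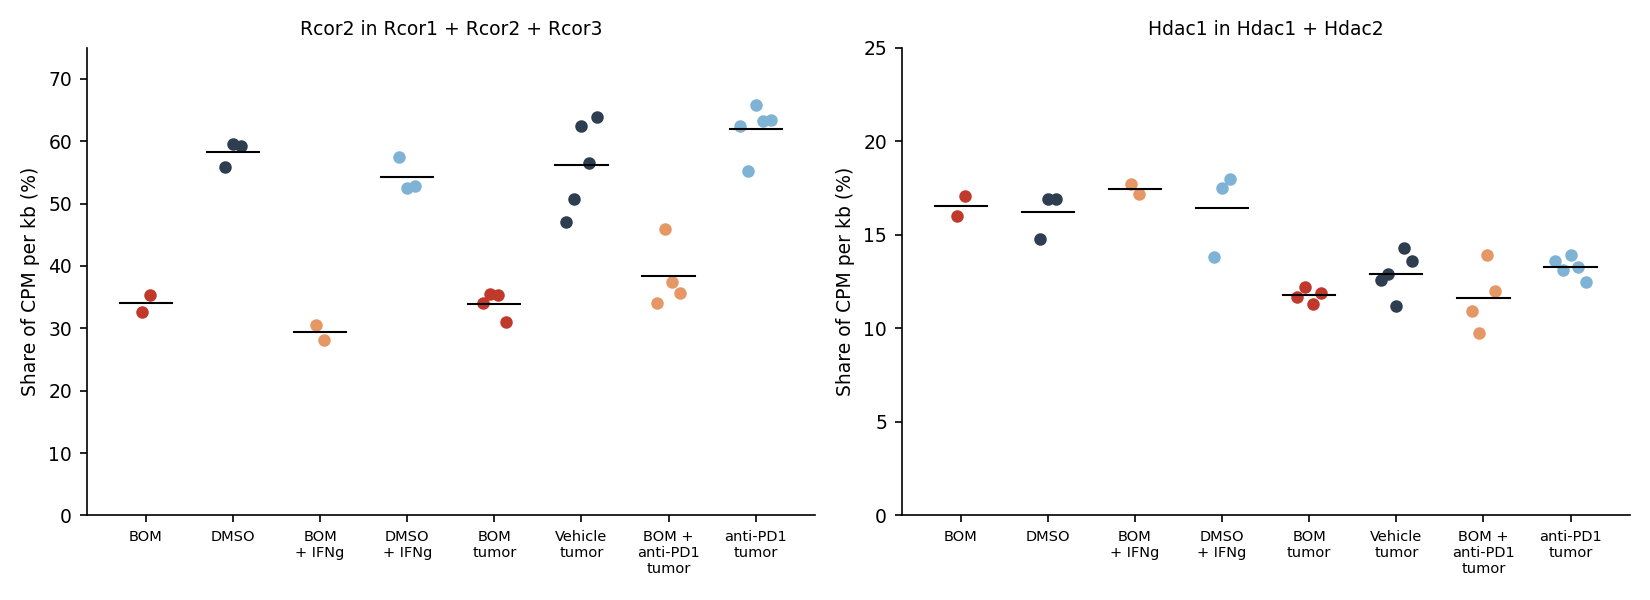
Share of Rcor2 in the summed CPM per kb of Rcor1, Rcor2 and Rcor3 (left) and of Hdac1 in Hdac1 plus Hdac2 (right), in percent, for the 10 d cultures and the tumors, with points for libraries and a line at the mean. The Rcor2 share averages 29.4 to 38.3% in the 4 groups with BOM against 54.3 to 62% in the 4 without, and the Hdac1 shares overlap.

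Kdm1a encodes LSD1, the target of the drug; its transcript level says nothing of the enzyme's activity under an inhibitor. At 10 d it measured 179 and 178 CPM with BOM, against 207, 202 and 211 CPM with DMSO. The groups did not overlap, and the fall was small (log2 fold change -0.28 ± 0.08, SE, adjusted p = 0.0186, edgeR). The call ended without BOM library 1 (adjusted p = 0.153), BOM library 2 (0.069), DMSO library 2 (0.0518) or DMSO library 3 (0.0872), and with scaling by library size alone (-0.21, adjusted p = 0.0728). With IFNg present Kdm1a measured 182 and 182 CPM with BOM, against 225, 233 and 230 CPM with DMSO, again without overlap (-0.40 ± 0.08, adjusted p = 0.00121). The difference between these effects was not called (interaction -0.12 ± 0.11, adjusted p = 0.9995, edgeR).

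In tumors Kdm1a measured 427, 459.7, 416 and 446 CPM with BOM, against 444, 508, 508, 544 and 535 CPM with vehicle. These groups overlapped through vehicle tumor 1, and the difference was just outside the threshold (log2 fold change -0.23 ± 0.08, SE, adjusted p = 0.0528, edgeR). Without vehicle tumors 1 and 2 it passed (-0.29, adjusted p = 0.0118). That fit was added after seeing the data, and tumor 1 had the lowest Kdm1a of its group, so its removal itself widens the difference. With BOM plus anti-PD1 Kdm1a measured 399, 457, 364 and 470.5 CPM, against 559.6, 569, 568, 570.0 and 557 CPM with anti-PD1 alone. The anti-PD1 tumors lay close together and above every BOM plus anti-PD1 tumor (-0.45 ± 0.08, adjusted p = 0.000306). Against vehicle the combination also lowered Kdm1a (-0.27 ± 0.08, adjusted p = 0.0302), and without tumors 1 and 3 of the combination it did not (-0.13, adjusted p = 0.368).

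In those 2 tumors the genes around Kdm1a and Hdac1 on chromosome 4 were low as well. Relative to the vehicle mean, the 177 expressed genes within 10 Mb of Kdm1a had a median log2 deviation of -0.20 in tumor 1 and -0.29 in tumor 3 of BOM plus anti-PD1, where Kdm1a itself stood at -0.35 and -0.49. The 199 genes around Hdac1 had medians of -0.23 and -0.28 there, and Hdac1 stood at -0.52 and -0.69. Kdm1a and Hdac1 lie within 10 Mb of each other, so their windows share genes and the medians are not independent. BOM tumor 3 was next, at -0.13 and -0.15. The other 15 tumors had medians between -0.10 and 0.08. With the neighbours' median deviation subtracted in each tumor, Kdm1a was lower with BOM plus anti-PD1 than with anti-PD1, by a log2 difference of -0.32. Before subtraction it was -0.46, and each had an exact two-sided permutation p = 0.00794, the smallest these groups of 4 and 5 allow. With the median of the neighbours' log2 CPM subtracted instead, the difference was -0.40 with the same p. With the 2 tumors left out the edgeR fold change was -0.30 (adjusted p = 0.0117). By the deviation measure, Kdm1a differed from vehicle by -0.16 with BOM plus anti-PD1 (exact permutation p = 0.0238), and these groups overlapped. With anti-PD1 it differed from vehicle by 0.16 (exact permutation p = 0.00794), without overlap. The part of the neighbouring genes in these differences was not tested.

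**Figure D5:**
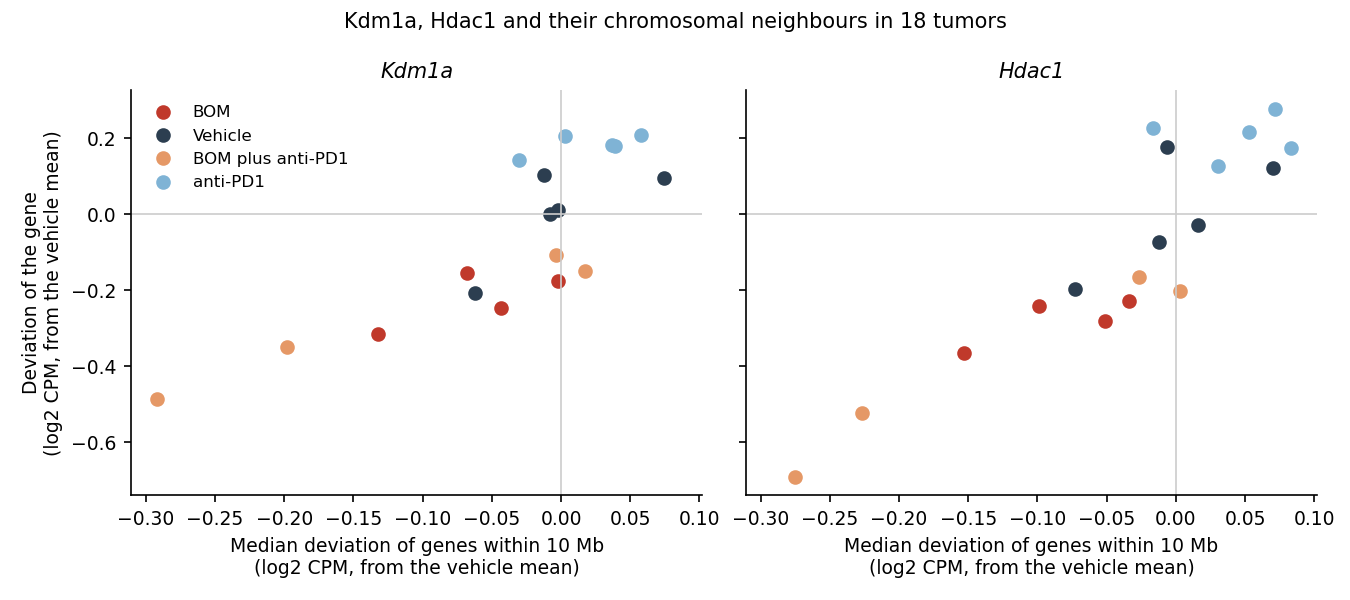
Deviation of Kdm1a (left) and Hdac1 (right) from the vehicle mean against the median deviation of genes within 10 Mb, both in log2 CPM, with a point for each of the 18 tumors. BOM plus anti-PD1 tumors 1 and 3 lie at the lower left (-0.20 and -0.29 for the neighbours of Kdm1a), and the anti-PD1 tumors lie above 0 on the vertical axis in both panels. The windows of Kdm1a and Hdac1 overlap.

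The deacetylases Hdac1 and Hdac2, which remove acetyl groups from histone tails in CoREST and in other complexes such as NuRD and SIN3, fell with BOM plus anti-PD1. Hdac1 measured 39.8, 49.8, 35.6 and 51.0 CPM with BOM plus anti-PD1, against 67.0, 60.8, 65.8, 67.5 and 62.7 CPM with anti-PD1. The groups did not overlap (log2 fold change -0.58 ± 0.10, SE, adjusted p = 0.000327, edgeR). Without tumors 1 and 3 it was -0.38 (adjusted p = 0.00897), and with the neighbours' median deviation subtracted the log2 difference was -0.42, beside -0.60 before (exact permutation p = 0.00794). With the median of the neighbours' log2 CPM subtracted it was -0.48. By the deviation measure, Hdac1 differed from vehicle by -0.265 with BOM plus anti-PD1 and by 0.158 with anti-PD1. With BOM against vehicle Hdac1 measured 47.1, 48.9, 45.4 and 48.6 CPM, against 50.5, 54.5, 55.9, 64.7 and 61.6 CPM. These groups did not overlap either, and the adjusted p of 0.0634 missed the threshold (-0.28 ± 0.10, edgeR). At 10 d Hdac1 was not called with BOM (-0.16, adjusted p = 0.547) nor with IFNg present (-0.21, adjusted p = 0.388).

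Hdac2 measured 422, 473, 428 and 412 CPM with BOM plus anti-PD1, against 552, 525, 530.2, 569.9 and 567 CPM with anti-PD1. All values were lower with the combination (log2 fold change -0.37 ± 0.07, SE, adjusted p = 0.000443, edgeR), and leaving out tumors 1 and 3 left it at -0.33 (adjusted p = 0.0129). The combination overlapped vehicle tumors, at 456, 477, 577, 504 and 507 CPM, and was still called lower than vehicle (-0.22 ± 0.07, adjusted p = 0.0382), which was not called without those 2 tumors (adjusted p = 0.233). BOM alone, at 459, 458, 464 and 467 CPM, was not called against vehicle (-0.13, adjusted p = 0.178). At 10 d with IFNg Hdac2 measured 180.4 and 184 CPM with BOM, against 219, 203 and 225 CPM with DMSO, without overlap (-0.31 ± 0.09, adjusted p = 0.0164). That call ended without either BOM library or DMSO library 3 with IFNg (adjusted p up to 0.112). Without IFNg the values were 203 and 207 CPM with BOM, against 222, 234 and 218 CPM with DMSO (-0.20, adjusted p = 0.127), and limma voom called this fall (-0.22, adjusted p = 0.0476).

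The ratio of the deacetylases to each other did not pass a test. Hdac1 made up 11.6 ± 1.75% of the sum per kb with BOM plus anti-PD1 (SD, n = 4) and 13.3 ± 0.515% with anti-PD1 (n = 5), a difference of -1.65 points (exact permutation p = 0.0952, adjusted over 8 tests 0.148). With BOM it was 11.8 ± 0.383% against 12.9 ± 1.18% with vehicle (exact permutation p = 0.111, adjusted 0.148). At 10 d it was 16.6 ± 0.780% with BOM and 16.2 ± 1.23% with DMSO (exact permutation p = 0.8, where 0.1 is the smallest possible). With IFNg it was 17.4 ± 0.415% with BOM and 16.4 ± 2.32% with DMSO (exact permutation p = 0.9).

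Of the remaining subunits, Zmym2 was called in culture and in tumors, in opposite directions, in comparisons fitted apart. Zmym2 is a zinc finger protein that joins CoREST and binds SUMO-modified partners. At 10 d it measured 141 and 129.7 CPM with BOM, against 173, 157 and 155 CPM with DMSO, without overlap (log2 fold change -0.33 ± 0.09, SE, adjusted p = 0.0119, edgeR). In tumors it measured 98.5, 101, 95.5 and 95.2 CPM with BOM, against 84.6, 81.7, 84.8, 78.8 and 78.0 CPM with vehicle, again without overlap but higher with BOM (0.25 ± 0.07, adjusted p = 0.0353). Both calls rested on single libraries: the first ended without either BOM library, and the second ended without vehicle tumor 2, 4 or 5 or any 1 of the 4 BOM tumors, with adjusted p up to 0.109 and 0.0866. It was not called with IFNg (-0.12, adjusted p = 0.355) or with BOM plus anti-PD1 against anti-PD1 (-0.01, adjusted p = 0.91).

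Hmg20b (BRAF35), an HMG-box protein of CoREST, and Phf21a (BHC80), whose PHD finger binds unmethylated H3K4, were called in no comparison. Hmg20b averaged 54.1 ± 1.93 CPM with BOM (SD, n = 2) and 56.8 ± 4.27 CPM with DMSO (n = 3) at 10 d, and 91.9 ± 7.49 CPM with BOM (n = 4) and 83.1 ± 6.91 CPM with vehicle (n = 5) in tumors. Its log2 fold changes with BOM at 10 d and in tumors lay between -0.14 and 0.14. Phf21a averaged 93.4 ± 6.27 CPM with BOM and 93.6 ± 2.13 CPM with DMSO at 10 d, and 86.9 ± 8.17 CPM with BOM and 79.5 ± 6.03 CPM with vehicle in tumors. Its log2 fold changes lay between -0.08 and 0.13. The smallest adjusted p of these 4 comparisons was 0.274 for Hmg20b and 0.154 for Phf21a. Without tumors 1 and 3 of BOM plus anti-PD1, Hmg20b was called against anti-PD1 (0.32, adjusted p = 0.0191). Those tumors had the lowest Hmg20b of their group, so their removal itself raises the fold change.

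Transcripts of 4 of the 9 members differed between RP-116 and the other cell lines of the 96 h culture, a share near that of all genes. Compared with RP-48 and G8545 together, 2 members were higher and 2 lower in RP-116, where 35.8% of all 13333 genes were called (16.5% higher and 19.3% lower). Kdm1a averaged 847 CPM in the RP-116 libraries and 531 CPM in the others (log2 fold change 0.78 ± 0.12, SE, adjusted p = 0.00169, edgeR), and Rcor2 177 CPM in RP-116 and 67.7 CPM in the others (1.68 ± 0.24, adjusted p = 0.00125). Rcor3 averaged 23.5 CPM in RP-116 and 48.6 CPM in the others (-0.95 ± 0.16, adjusted p = 0.00272), and Hdac1 37.7 CPM in RP-116 and 64.9 CPM in the others (-0.62 ± 0.15, adjusted p = 0.0134). None of these 4 overlapped between RP-116 and the other lines; the Hdac1 call ended without either RP-116 library or the RP-48 BOM library. The line means pool BOM and DMSO, and each line has 2 libraries that share the line, so the spread between cultures of a line is unknown. The members' median log2 fold change was -0.19, beside 0.02 over all genes.

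Between G8545 and RP-48, 1 of 9 members was called, where 21% of genes were (9.99% higher and 11% lower). Hdac1 averaged 84.4 CPM in G8545 and 45.5 CPM in RP-48 (log2 fold change 0.81 ± 0.17, SE, adjusted p = 0.0112, edgeR), and without either RP-48 library it was not called. Rcor2 averaged 88.8 CPM in G8545 and 46.5 CPM in RP-48 and was not called (0.75 ± 0.29, adjusted p = 0.115), with the G8545 libraries at 45.3 CPM with BOM and 132 CPM with DMSO. Without the G8545 BOM library, which leaves 1 library of that line, the log2 fold change was 1.26. Rcor2 was called without a filter on low counts (0.72, adjusted p = 0.0089). Phf21a averaged 119.6 CPM in G8545 and 80.9 CPM in RP-48 and was not called (0.49 ± 0.16, adjusted p = 0.0702). The members' median was 0.11, beside 0.01 over all genes.

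IFNg, the cytokine that raises antigen presentation, moved no member past the threshold. With DMSO, 0 of 9 members were called, where 2.27% of 15230 genes were (1.95% higher and 0.315% lower), and DESeq2 and limma voom also called 0. The one member at an unadjusted p under 0.05 was Kdm1a, which measured 225, 233 and 230 CPM with IFNg, against 207, 202 and 211 CPM without (log2 fold change 0.16 ± 0.07, SE, adjusted p = 0.502, edgeR). In BOM-treated cells 0 of 9 were called with IFNg, where 2.06% of genes were (1.73% higher and 0.328% lower); 0 had an unadjusted p under 0.05, and DESeq2 and limma voom called 0. Rcor2 had its lowest mean in BOM with IFNg (35.6 ± 4.35 CPM, SD, n = 2), next to BOM without it (44.3 ± 6.47 CPM, n = 2). The difference did not pass (-0.32 ± 0.16, adjusted p = 0.536). The interaction of BOM and IFNg was called for 0 of 9 members and 0% of genes, with 725 genes and 0 members at an unadjusted p under 0.05, and DESeq2 and limma voom called 13 and 0 genes. For Rcor2 it was -0.14 ± 0.20, so an extra change of IFNg on the BOM effect was not detectable with these libraries.

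Anti-PD1 alone left the members below the threshold as well. Against vehicle 0 of 9 members and 0% of 14332 genes were called, with 1399 genes and 3 members at an unadjusted p under 0.05; DESeq2 and limma voom called 86 and 0 genes and 0 members. Those 3 members were all higher with anti-PD1: Kdm1a (log2 fold change 0.18 ± 0.07, SE, adjusted p = 0.401, edgeR), Hdac1 (0.20 ± 0.09, adjusted p = 0.484) and Hdac2 (0.15 ± 0.06, adjusted p = 0.429). Kdm1a was higher in every anti-PD1 tumor (557 to 570.0 CPM) than in every vehicle tumor (444 to 544 CPM). Adding anti-PD1 to BOM gave 0 members and 0% of genes, with 1076 genes and 1 member, Zmym2, at an unadjusted p under 0.05 (-0.19 ± 0.08, adjusted p = 0.642), while DESeq2 and limma voom called 8 and 1 genes and 0 members.

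The interaction of BOM and anti-PD1 was called for 0 of 9 members and 0% of genes by edgeR, with 1242 genes and 4 members at an unadjusted p under 0.05; DESeq2 and limma voom called 6 and 0 genes and 0 members. The 4 were Kdm1a (-0.22 ± 0.11), Hdac1 (-0.31 ± 0.14), Hdac2 (-0.24 ± 0.09) and Zmym2 (-0.26 ± 0.11), with adjusted p between 0.507 and 0.573. The larger falls of Kdm1a, Hdac1 and Hdac2 in the comparison of BOM plus anti-PD1 with anti-PD1 were thus not shown to differ from those of BOM with vehicle. Against vehicle, BOM plus anti-PD1 lowered 4 of 9 members (Kdm1a, Rcor2, Hdac1 at -0.38 ± 0.10 with adjusted p = 0.0214, and Hdac2), where 10.8% of genes were called (5.49% lower and 5.34% higher). The calls of Kdm1a and Hdac1 there ended without vehicle tumor 4 or 5 or without tumor 1 or 3 of the combination, and that of Kdm1a also without vehicle tumor 3 (adjusted p up to 0.105). The call of Hdac2 ended without vehicle tumor 3, 4 or 5, tumor 1, 3 or 4 of the combination, anti-PD1 tumor 5 or BOM tumor 1 (adjusted p up to 0.117). The comparisons with vehicle share those 5 tumors, and the comparisons of BOM plus anti-PD1 share its 4 tumors.

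Genes around the complex were followed in 6 lists. Of the 11 transcription factors that recruit LSD1, 8 were measured at 10 d and in tumors, and Rest and Snai2 rose in all 4 comparisons with BOM. Rest, a zinc finger repressor of neuronal genes that binds RCOR1, averaged 29.8 ± 2.77 CPM with BOM (SD, n = 2) and 4.27 ± 1.48 CPM with DMSO (n = 3) at 10 d, a log2 fold change of 2.75 (adjusted p = 7.38e-07, edgeR). In tumors Rest averaged 41.7 ± 3.88 CPM with BOM (n = 4) and 13.2 ± 11.8 CPM with vehicle (n = 5, from 3.44 to 30.6 CPM), and 39.2 ± 3.68 CPM with BOM plus anti-PD1 (n = 4) and 4.38 ± 1.06 CPM with anti-PD1 (n = 5). Snai2, a SNAG-domain repressor, averaged 9.54 ± 2.02 CPM with BOM and 1.16 ± 0.316 CPM with DMSO at 10 d (2.97, adjusted p = 9.37e-06), and 15.7 ± 2.12 CPM with BOM and 5.11 ± 4.87 CPM with vehicle in tumors (1.49, adjusted p = 0.0337).

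Other recruiters were called in tumors and not at 10 d, a difference that was not tested: with BOM against vehicle 5 of 8 rose and none fell, the others being Insm1 (0.41), Gfi1 (0.55) and Zeb1 (0.48). With BOM plus anti-PD1 against anti-PD1, 4 of 8 rose (Rest at 3.13, Snai2 at 3.26, Gfi1 and Zeb1) and Hic1 fell (-0.84). The recruiters' median log2 fold change stood at 0.25 and 0.14 at 10 d without and with IFNg and 0.51 and 0.43 in tumors, beside -0.01 over all genes. The shares of all genes called were, in the same order, 20.3% and 23.1% at 10 d and 14% and 32.1% in tumors. Insm1 and Gfi1 also mark neuroendocrine cells, and Zeb1 and Snai2 are expressed in fibroblasts. In the 10 d culture the fibroblast genes summed to 59.1 to 66.7 CPM with BOM and 17.0 to 21.0 CPM with DMSO, with none of the 7 at 0. The 4 endothelial genes summed to 33.4 and 49.5 CPM with BOM and 9.16 to 11.6 CPM with DMSO. With IFNg they summed to 52.7 and 54.1 CPM with BOM and 9.32 to 14.5 CPM with DMSO. The defining gene Cdh5 was at 0 in the BOM libraries without IFNg, while none of the 4 was at 0 in any other group of this culture. The part of these markers in the result was not tested.

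Of 8 other LSD1 and CoREST partners, Zfp217, a zinc finger protein found with CoREST, fell at 10 d with BOM (log2 fold change -0.79, adjusted p = 0.000771, edgeR) and with IFNg present (-0.73), the only one of the 8 called there. In tumors none of the 8 fell: Gse1 (0.38) and Rreb1 (0.53) rose with BOM against vehicle, and Rreb1 (0.80) and Zfp217 (0.34) were among those that rose with BOM plus anti-PD1 against anti-PD1. The list's median was -0.09 and -0.13 at 10 d and 0.05 and 0.09 in tumors. Of all genes, 8.25% and 10.1% were called lower at 10 d, and 5.92% and 15.7% higher in tumors.

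NuRD, a remodeling complex that shares Hdac1 and Hdac2 with CoREST, showed 2 remodelers that changed in opposite directions. Chd3 fell at 10 d (log2 fold change -1.66 both without and with IFNg) and rose in tumors (0.38 with BOM and 0.39 with BOM plus anti-PD1), while Chd5 rose at 10 d (0.71 and 0.77) and fell in tumors (-1.51 and -1.37). Of 13 NuRD genes, 2 rose and 1 fell with BOM at 10 d, the other riser being the histone chaperone Rbbp7 (0.30). With IFNg present 1 rose and 3 fell, with Cdk2ap1 (-0.75) and Gatad2a (-0.30) beside Chd3. In tumors 1 rose and 1 fell against vehicle, and 2 rose and 2 fell with BOM plus anti-PD1 against anti-PD1, with Mta3 (0.39) and Gatad2a (-0.32) beside the remodelers. The list's medians lay between -0.12 and 0.03. Over all genes, 20.3% were called at 10 d, 23.1% with IFNg, 14% with BOM against vehicle and 32.1% with BOM plus anti-PD1 against anti-PD1. The NuRD counts lie near those shares.

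Of 15 measured SIN3 genes, 1 rose at 10 d (Arid4a, 0.46), 1 rose and 2 fell with IFNg present (Arid4a at 0.38 rose, and Sap30 at -0.61 and Ing1 at -0.37 fell), and 1 rose in tumors against vehicle (Phf12, 0.25). With BOM plus anti-PD1, Phf12 rose (0.33) and Suds3 (-0.30), Ing1 (-0.34) and Ing2 (-0.36) fell. Of 13 measured partners of other class I deacetylase complexes, 2 rose and 1 fell at 10 d (Hdac3 at 0.50 and Mier1 at 0.31 rose, and Mier2 at -0.45 fell), and 1 rose and 1 fell with IFNg (Mier1 and Mier2 again). With BOM against vehicle edgeR called 0 of these 13, with 3 at an unadjusted p under 0.05 and 0 by DESeq2 and by limma voom, and Mier2 fell with BOM plus anti-PD1 (-0.28). Of 14 genes of the H3K4 methyltransferase complexes, which write the mark that LSD1 removes, and their opposing demethylases, Ash2l (-0.52) and Kdm5b (-0.29) fell at 10 d and 4 fell with IFNg (Ash2l at -0.60, Wdr5 at -0.34, Setd1b and Kdm5b at -0.28). In tumors Dpy30 fell (-0.37) and Setd1b rose (0.37) with BOM against vehicle, and Dpy30 (-0.54), Wdr5, Ash2l and Rbbp5 fell with BOM plus anti-PD1. These list medians lay between -0.18 and 0.09. The counts stand beside 20.3% and 23.1% of all genes called at 10 d without and with IFNg. In tumors the shares were 14% with BOM against vehicle and 32.1% with BOM plus anti-PD1 against anti-PD1. At 96 h edgeR called 0 of 70 measured genes of the 6 lists, with 2 at an unadjusted p under 0.05 and 0 by DESeq2 and by limma voom.

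The genes whose log2 CPM tracked Kdm1a and Rcor2 most closely are given as a description, since treated and untreated libraries both enter. Over the 18 tumors Kdm1a was most like its fellow member Hdac1 (Pearson r = 0.98), followed by Yars (0.97), Rangap1 (0.96) and Mfn2 (0.96) of 10404 genes compared. Kdm1a and Hdac1 lie within 10 Mb of each other on chromosome 4 and share the low regional medians of BOM plus anti-PD1 tumors 1 and 3. Rcor2 was most like Asns (0.98), the asparagine synthetase, Ccdc136 (0.98), the mitochondrial folate enzyme Mthfd2 (0.97) and Psat1 (0.97) of serine synthesis. Over the 10 libraries at 10 d Kdm1a was most like Abhd15 (0.99), Ampd2 (0.98), Fblim1 (0.97) and Gmnn (0.97), and Rcor2 most like Cdk5r1 (0.99), Zdhhc23 (0.99), Impdh1 (0.99) and Vgll4 (0.99). Kdm1a and Rcor2 correlated at r = 0.795 over tumors and 0.855 at 10 d, while Rcor1 and Rcor2 correlated at -0.57 over tumors and 0.08 at 10 d. Hdac2 correlated with Rcor2 at 0.84 over tumors and 0.92 at 10 d.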

How the data were processed

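RNA-seq gene counts of 34 mouse libraries were used as the authors deposited them, as whole-number counts in 3 tables. Per the submitters' processing notes, STAR 2.7, FastQC 0.11.9, Subread 2.0 with featureCounts and the build mm10 were used; settings were not given in the sources used here. The depth of each library sets the counting error of its values. Tables were fitted apart in edgeR 4.0.16 (R 4.3.3, TMM scaling, filterByExpr), which tested 13333, 15230 and 14332 genes at 96 h, 10 d and in tumors; at 96 h the fit held the cell line as a block, and all groups of a table were fitted together. SE values come from those fits. Log2 CPM used a prior count of 2. The edgeR fit of the tumors was tested on simulated data, and the other fits were not. DMSO libraries with and without IFNg of the same number deviated together (residual r = 0.502, 0.154 and 0.127); their block is an alternative that changed no member call. Alternatives used DESeq2 1.42.0, limma voom (limma 3.58.1), other scalings and filters, the groups compared alone and each library left out. All 9 members were named, with at most 5 called genes per list and comparison and the 4 closest by correlation at a mean log2 CPM of at least 3. The members and lists were chosen with earlier results of these data known. Fits without the tumors named in the text and values relative to neighbouring genes, by 2 measures, were added after seeing the data. Some results of the motif search and of 1 gene list are not reported here.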

Additional observations from a re-analysis of the deposited data

Results flagged for a closer look

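A library standing apart from its group was looked for by Dixon's ratio of the gap to the range in 44 sets of 4 or 5 tumors, and 2 were found. The sets are 11 measures in each of 4 tumor groups, namely the log2 CPM of the 9 members and the Rcor2 and Hdac1 shares in percent; chance flags about 1 in 20 groups. For Rcor2 with BOM plus anti-PD1 the ratio was 0.846: tumor 3 measured 70.6 CPM and the others 41.8 to 45.2 CPM. For Rcor1 with anti-PD1 the ratio was 0.78: tumor 2 measured 145 CPM and the others 107 to 112 CPM.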

How the results depend on the processing

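No called fold change of a member turned its sign. Under settings other than a left-out library, 1233 fold changes of members were compared. Of these, 1196 kept their side of the threshold, 15 lost a call and 22 gained one. Of 1584 with 1 library left out the counts were 1530, 38 and 16. For 162 differences relative to neighbours, by 2 measures, they were 154, 6 and 2, at an unadjusted exact permutation p under 0.05. The group sizes at 10 d cannot reach that p, so the differences at 10 d were bound to keep their side. The fall of Rcor2 remained called under every setting at 10 d without and with IFNg (adjusted p up to 0.000228 and 4.66e-05), with BOM against vehicle (up to 0.0138) and with BOM plus anti-PD1 against anti-PD1 (up to 0.00116). With BOM against vehicle, members called numbered 4 with DESeq2, 5 with limma voom, 1 without a filter, 1 with the replicate block, 4 with vehicle tumor 1 thinned, 4 without BOM plus anti-PD1 tumors 1 and 3, 4 without vehicle tumors 1 and 2, and 1 to 5 with 1 library left out, in place of 2. For BOM plus anti-PD1 against vehicle (4) they were 0 in a fit of only those groups, 1 without tumors 1 and 3 and 1 to 4 with 1 library left out, and all genes called fell to 83, against 1552. For G8545 against RP-48 (1) they were 2 by library size alone, 2 without a filter and 0 to 3 with 1 library left out; for BOM at 96 h 1 without a filter (Rcor2, adjusted p = 0.00462); and for BOM at 10 d (3) 1 to 3 with 1 library left out, 1 without either BOM library, 4 with limma voom (Hdac2 gained) and 2 without a filter or by library size alone (Kdm1a lost). Hdac1 shares differed by -1.59 to -0.81 points with BOM against vehicle and -2.39 to -1.02 with BOM plus anti-PD1 against anti-PD1 with 1 tumor left out, in place of -1.15 and -1.65. The block by replicate number gave 3 members called for BOM at 10 d without and with IFNg, 4 for BOM plus anti-PD1 against anti-PD1 and 3 against vehicle, and without the line block 0 at 96 h; tumors share only a number. The cause of these changes was not tested, except that smaller fits hold fewer samples. Counts of Hdac1 with its named pseudogenes were not run, since 0 were annotated. Counts of 180 or more per library limit the precision of the lowest members.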
